A study of Danio rerio with 7 samples.

Results

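The mitochondrial ribosomal protein genes of zebrafish larvae were followed in whole-larva RNA from 3 feeding groups. Members were all genes whose symbol starts with mrpl or mrps and a digit. The rule found 76 of the 32520 reference genes in the files, 47 named mrpl and 29 named mrps, of which MRPL49 and MRPS12 are written in capitals. The rule reads gene symbols only.

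Mitochondria carry their own ribosome, the mitoribosome, which makes the few respiratory chain and ATP synthase proteins encoded by the mitochondrial genome. Its RNAs come from that genome, while all of its proteins are encoded in the nucleus, made in the cytosol and imported. Some of these proteins descend from the bacterial ancestor of mitochondria, and others were added during the evolution of mitochondria. Tissues that burn fat depend on the respiratory chain that this ribosome builds, and in humans mutations in many of its protein genes impair that chain.

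All larvae carried the CD36 overexpression transgene, CD36 being a transporter that takes long-chain fatty acids into cells, and were collected as whole larvae at 15 days post fertilisation (dpf). The normal-diet group (diet labelled 12%) held 3 libraries, named fish 1, 2 and 4. The high-fat group (diet labelled 24%) held fish 2 and 4. The high-fat + CACF group, called CACF here, held another fish 2 and fish 4, which received the 24% diet and, once feeding had ended, a night in buffer with CACF at 40 µg/ml, while the other larvae had no CACF. The labels do not explain the name CACF, and they give neither the promoter of the transgene nor whether a library is 1 larva or a pool. No library without the transgene was among the 7. The labels do not tie fish to clutches or tanks, and p-values therefore measure only how these libraries spread.

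The level of an mRNA is given as TPM, a transcript abundance corrected for gene length and library depth. Differences are log2 fold changes of TPM + 1, and a gene was called at an adjusted p under 0.05 over 18169 genes. The 7 libraries held 12699552 to 22543693 reads assigned to genes. The libraries of normal-diet fish 1 and of CACF fish 2 were unlike the rest: their median correlations with the others were 0.876 and 0.875, against 0.940 to 0.946 for the other 5 libraries. In normal-diet fish 1 the summed TPM of 3 lens crystallin genes was 7060, against 51.8 to 147 elsewhere, and none of the 3 was at 0 in any library. Genes of the mitochondrial genome took 17.8%, 10.1% and 7.74% of reads on normal diet, 14.0% and 10.8% on high-fat diet, and 28.2% and 20.9% with CACF. At least 1 marker each of muscle, skin, liver, exocrine pancreas, gut, neurons, lens, photoreceptors and blood was expressed.

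All 76 members were expressed. Each was at 1 TPM or more in every library and passed the filter, and single members had 74 to 1578 reads in a library. The median member had 254.5 to 409.5 reads per library. The genes lie on 22 of the 25 nuclear chromosomes, with 7 on chromosome 19. Of the 76, 16 overlap another gene, 15 of them a gene on the opposite strand and 2 a gene on the same strand. How the counting treated strand is unknown, so reads of such neighbours may be shared.

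By their known place in the mitoribosome, 49 members belong to the large subunit, 26 to the small subunit and 1 to neither. In the large subunit 29 have a bacterial counterpart and 20 are specific to mitochondria. In the small subunit these numbers are 16 and 10. Despite their names, mrps18a and mrps30 encode large-subunit proteins in mammals, and mrps36 encodes a component of the oxoglutarate dehydrogenase complex of the citric acid cycle.

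Mean TPM over the 7 libraries ran from 2.21 to 50.7, with a median of 19.2. Most members lay close together: 59 had a mean of 10 to 40 TPM, 12 were lower and 5 were higher. The highest was mrpl12, which encodes the stalk protein that recruits translation factors, with 50.7 TPM. Next came mrpl30 with 47.1 TPM, mrps36 with 43.3 TPM, mrps10 with 41.2 TPM and mrpl57 with 40.2 TPM. The lowest were mrps15 with 5.99 TPM, mrpl9 with 5.88 TPM and mrpl22 with 2.21 TPM. The last 2 overlap prcc and gemin5 on the other strand, and mrps15 overlaps an unnamed gene on its own strand. The lowest member was mrpl22 in each of the 7 libraries.

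The values of the top 5 overlap over the libraries, and the highest member changes from library to library. No test between these genes was made. mrpl12 stood at 28.9, 41.0 and 42.4 TPM on normal diet, at 46.8 and 67.8 TPM on high-fat diet, and at 77.7 and 50.5 TPM with CACF. mrpl30 stood at 26.7, 53.1 and 59.8 TPM, at 56.2 and 48.5 TPM, and at 45.7 and 39.5 TPM in the same order. mrpl12 was therefore the highest member in high-fat fish 4 and both CACF libraries, mrpl30 in normal-diet fish 2, fish 4 and high-fat fish 2, and mrps36 in normal-diet fish 1. The relative levels of all members were similar in every library. Pearson's r between a library and the mean over all 7, across members on the log2 scale, was 0.917 to 0.983. This r reads levels and does not measure order. Members are not independent and each library is part of that mean.

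The median of mean TPM was 22.2 for large-subunit proteins with a bacterial counterpart, 19.5 for the large-subunit proteins specific to mitochondria, 19.1 for small-subunit proteins with a bacterial counterpart and 12.7 for the small-subunit proteins specific to mitochondria. The summed TPM of the large subunit was 2.11 to 2.37 times that of the small subunit in single libraries, in every group.

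**Figure D1:**
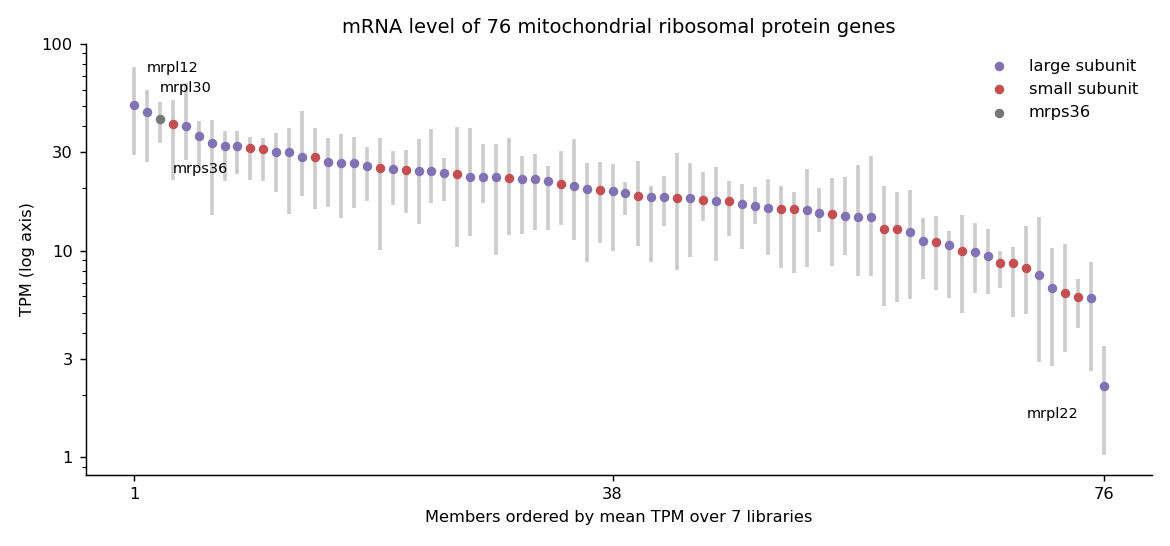
Mean TPM of each of the 76 members over 7 libraries (points, coloured by subunit) with the range over libraries (grey bars), ordered by mean, on a log axis. Most members lie between 10 and 40 TPM, and the ranges of neighbours in the order overlap.

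In TPM, single libraries of the normal-diet and CACF groups lay far apart. The members' summed TPM was 937, 1665 and 1556 in normal-diet fish 1, 2 and 4, 1650 and 1661 in high-fat fish 2 and 4, and 1995 and 1466 in CACF fish 2 and 4. Normal-diet fish 1 was low and CACF fish 2 was high, and the other 5 libraries lay between 1466 and 1665. The group means of these sums were 1386 ± 392 (SD, n = 3), 1655 ± 8.12 (SD, n = 2) and 1730 ± 374 (SD, n = 2). All 76 members were below their own mean in normal-diet fish 1, with a median deviation of -0.71 on the log2 scale, while the median deviation of all genes tested there was -0.36. That library was the lowest of the 7 for 71 of 76 members (93.4%) and for 43.3% of all genes tested. CACF fish 2 lay above the members' own means for 66 of 76, with a median deviation of 0.41 against 0.11 for all genes. It was the highest library for 48 of 76 members, and for 27.8% of all genes. The part that the lens RNA of the former and the mitochondrial RNA of the latter have in these deviations was not tested.

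Normalized counts, which the authors' tables give per library and which do not depend on the sum of TPM, narrowed that range. The summed normalized count of the members was 20779, 22763 and 25772 on normal diet, 28203 and 27593 on high-fat diet, and 28783 and 21326 with CACF. On this scale both high-fat libraries lay above all 3 normal-diet libraries, while CACF fish 2 was the highest library and CACF fish 4 was above normal-diet fish 1 alone. The members took 0.105%, 0.150% and 0.158% of all reads on normal diet, 0.174% and 0.169% on high-fat diet, and 0.183% and 0.137% with CACF. Of reads off the mitochondrial genome they took 0.128%, 0.166% and 0.172%, then 0.202% and 0.189%, then 0.255% and 0.174%, in the same order. By that share CACF fish 4 lay just above all 3 normal-diet libraries. In whole larvae, fewer cells rich in a transcript and less of it per cell cannot be told apart.

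**Figure D2:**
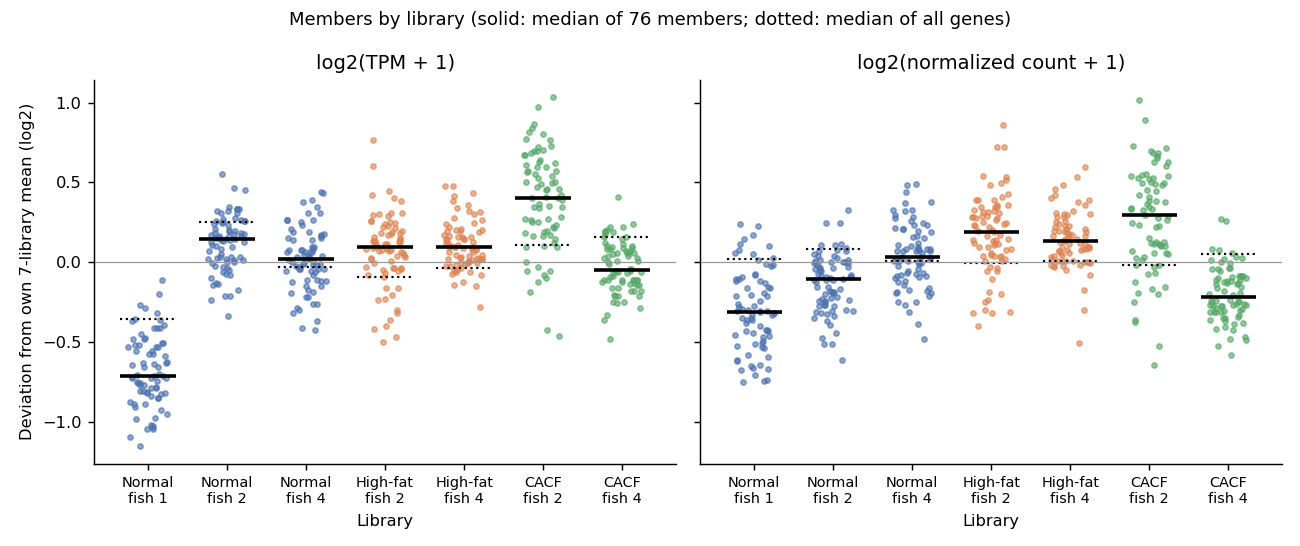
Deviation of each member (points) from its own mean over 7 libraries, on the log2 scale, for TPM + 1 (left) and normalized counts + 1 (right). Solid bars are medians of the 76 members and dotted bars medians of all genes. Normal-diet fish 1 lies lowest and CACF fish 2 highest on both scales, and both high-fat libraries lie above 0.

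The first comparison, high-fat against normal diet, asks what the richer diet did. No member was called by limma (0 of 76, where 0.0% of all genes were called), and none had an unadjusted p under 0.05, against 3.31% of all genes. The 76 members nevertheless leaned one way. The mean was higher on high-fat diet for 67 members, or 88.2%, against 47.2% of all genes tested, and the median log2 fold change was 0.27 against -0.03 for all genes. The contrast was smaller among genes that reached 5 TPM in 2 libraries. There the mean was higher for 66 of 75 members and for 55.1% of all genes, with medians of 0.27 and 0.05. The interquartile range of members was 0.15 to 0.40, and single members ranged from -0.22 to 0.89 with a typical standard error of about 0.4. For TPM both this size and the count of 67 rest on 1 library. Without normal-diet fish 1 the median was 0.01, against -0.18 for all genes. The mean was then higher for 39 members and lower for 37, while it was higher for 29.0% of all genes.

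The lean was seen in all classes in the TPM fit with all 7 libraries. The classes share these libraries, with every member below its own mean in normal-diet fish 1, so their medians are not independent. The median was 0.28 for the 29 large-subunit proteins with a bacterial counterpart, 0.27 for the 20 large-subunit proteins specific to mitochondria, 0.27 for the 16 small-subunit proteins with a bacterial counterpart and 0.23 for the 10 small-subunit proteins specific to mitochondria. In the last class all 10 means were higher.

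On the scale of normalized counts, where the fish 1 library deviated less, 68 of 76 members had a higher mean, against 46.0% of all genes. For 35 of 76 members, or 46.1%, both high-fat libraries lay above all 3 normal-diet libraries, which was so for 11.5% of all genes. The reverse held for mrpl4 and mrps2 alone among members, and for 14.1% of all genes. Without normal-diet fish 1 these counts were 38 higher and 5 lower, against 15.9% and 19.5% of all genes. With TPM, 15 members lay higher without overlap and none lower, against 6.11% and 12.1% of all genes. Without fish 1, 15 lay higher and 13 lower in TPM, against 7.36% and 28.5%. edgeR on the recovered reads called no member, with 4 at an unadjusted p under 0.05, against 6.41% of all genes. DESeq2 called none, with 2 at that p against 5.9%, and limma on normalized counts called none, with 2 against 6.04%.

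The member with the smallest p was mrpl35, a large-subunit protein, at chromosome 17 (43512876 to 43517542, minus strand, GRCz11). Its TPM was 9.50, 21.7 and 19.7 on normal diet, 33.0 and 28.2 on high-fat diet, and 27.3 and 19.2 with CACF. Both high-fat libraries were above every other library. The mean was 17.0 ± 6.54 TPM (SD, n = 3) on normal diet and 30.6 ± 3.36 TPM (SD, n = 2) on high-fat diet. The log2 fold change was 0.89 ± 0.43 (SE), with an adjusted p of 1.0 by limma, so this difference did not exceed the spread by that test. In the authors' deposited table mrpl35 also had the smallest p among members, 0.0436, with an adjusted p of 0.716.

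Next in order was mrpl24, another large-subunit protein, at 14.9, 30.9 and 32.3 TPM on normal diet and 42.8 and 40.4 TPM on high-fat diet. The groups did not overlap, and the log2 fold change was 0.73 ± 0.43 (SE). For mrpl1, part of the mobile stalk beside the exit site for spent tRNA, the values were 2.88, 6.21 and 6.17 TPM against 6.98 and 10.1 TPM, a log2 fold change of 0.68 ± 0.45. The stalk protein gene mrpl12, given above for every library, had a log2 fold change of 0.60 ± 0.40. For the small-subunit gene mrps21 the values were 10.1, 18.6 and 28.6 TPM against 27.1 and 29.8 TPM, a log2 fold change of 0.66 ± 0.44, and the groups overlapped. The adjusted p of each of these 4 members was 1.0.

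Means were lower for 9 members, and the 3 farthest from the rest are given here. mrpl34 was at 16.0, 35.6 and 31.9 TPM on normal diet and at 17.7 and 28.5 TPM on high-fat diet, a log2 fold change of -0.22 ± 0.44. mrpl44, whose protein has a fold like that of the enzyme RNase III, had a log2 fold change of -0.19 ± 0.38. mrps2, a small-subunit protein of bacterial type, had one of -0.11 ± 0.38. All 3 overlapped between the groups in TPM.

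Other members named for a known role were not called either. mrpl58, a peptidyl-tRNA hydrolase built into the large subunit that helps to free stalled chains, was at 16.3, 30.8 and 27.3 TPM on normal diet and at 34.5 and 35.2 TPM on high-fat diet, a log2 fold change of 0.52 ± 0.40. The 3 paralogs mrps18a, mrps18b and mrps18c had log2 fold changes of 0.47, 0.13 and 0.16. mrps36, of the oxoglutarate dehydrogenase complex, had one of 0.15 ± 0.38.

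**Figure D3:**
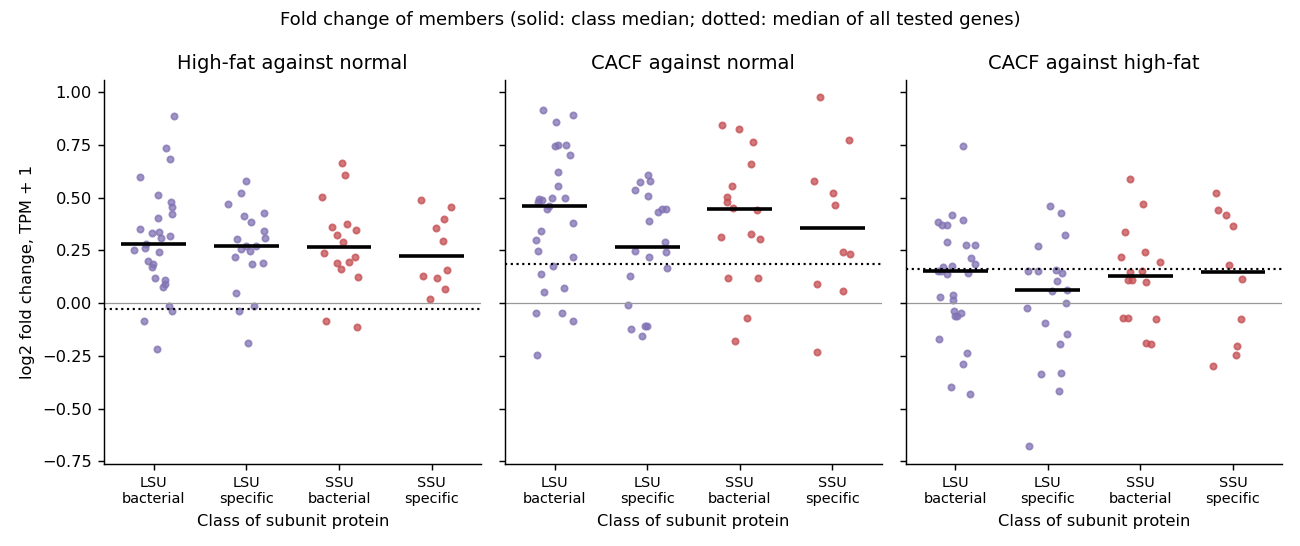
Log2 fold change of TPM + 1 for each member (points) by class of subunit protein in the 3 comparisons, LSU being the large and SSU the small subunit. Solid bars are class medians and the dotted line is the median of all genes tested. In the left panel all 4 class medians lie between 0.23 and 0.28, above the line at -0.03. In the right panel they lie between 0.06 and 0.15, below the line at 0.16.

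The second comparison, CACF against normal diet, combines the change of diet and the night in buffer with the compound. No member was called by limma (0 of 76, against 0.0771% of all genes), and 4 members had an unadjusted p under 0.05, against 12.5% of all genes. The median log2 fold change of members was 0.41 against 0.19 for all genes, with higher means for 64 of 76 members, or 84.2%, against 63.8% of all genes. On normalized counts the median was 0.21 against 0.00, and 52 members had higher means, against 50.0% of all genes. The value rests on both libraries that stand apart: without normal-diet fish 1 the TPM median was 0.15, without CACF fish 2 it was 0.18, and without both it was -0.10.

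With all libraries, the shares of members that lay higher without overlap were close to those of all genes. In TPM 16 members lay higher with CACF, or 21.1%, against 19.2% of all genes, and none lower, against 8.72%. On normalized counts 11 lay higher and 4 lower, against 16.3% and 16.7% of all genes. Without CACF fish 2, 12 lay higher and 21 lower on that scale, against 26.3% and 24.5%. Without CACF fish 2 and normal-diet fish 1, 46 members (60.5%) lay lower and 14 higher on normalized counts, against 32.8% and 33.9% of all genes, and 37 (48.7%) lay lower and 17 higher in TPM, against 27.3% and 34.0%. edgeR called no member, against 0.0188% of all genes, and DESeq2 called none, against 3.65%, each with 3 members at an unadjusted p under 0.05, against 13.9% and 11.9% of all genes. limma on normalized counts also called none, against 0.148% of all genes, with 3 at an unadjusted p under 0.05 against 13.7%.

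The 4 members with an unadjusted p under 0.05 were mrps22, mrpl13, mrpl17 and mrps9. mrps22, a small-subunit protein specific to mitochondria whose loss causes severe disease in humans, lies at chromosome 15 (6948644 to 6966245, minus strand). Its TPM was 5.40, 10.2 and 12.1 on normal diet, 12.6 and 12.3 on high-fat diet, and 20.6 and 16.3 with CACF. The 3 groups did not overlap and followed that order, with means of 9.25 ± 3.47 (SD, n = 3), 12.5 ± 0.184 (SD, n = 2) and 18.4 ± 3.06 (SD, n = 2). The log2 fold change was 0.98 ± 0.41, with an adjusted p of 0.362 by limma, 0.333 by edgeR and 0.252 by DESeq2. On normalized counts mrps22 lay higher with CACF than on high-fat diet without overlap. That was so for 3 members (3.95%), the others being mrpl4 and mrps31, and for 24.8% of all genes.

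mrpl13, at 11.8, 19.0 and 18.4 TPM on normal diet and 39.3 and 23.9 TPM with CACF, had a log2 fold change of 0.89 ± 0.40. mrpl17 was at 7.54, 12.6 and 13.0 TPM on normal diet and 28.8 and 15.5 TPM with CACF, a log2 fold change of 0.92 ± 0.41. mrps9 was at 3.25, 6.31 and 4.15 TPM on normal diet and 10.8 and 7.05 TPM with CACF, a log2 fold change of 0.84 ± 0.39. For each of these ribosome core proteins of bacterial type the groups did not overlap, and CACF fish 2 was well above CACF fish 4. Their adjusted p-values by limma were 0.388, 0.395 and 0.401. In the authors' deposited table mrps9 had the smallest p among members, 0.00898, with an adjusted p of 0.233. The fifth in order, mrps24, had a log2 fold change of 0.82 ± 0.42.

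Against the majority, mrpl32, whose protein must be trimmed by a mitochondrial protease before it enters the ribosome, stood at 12.6, 27.2 and 29.3 TPM on normal diet, 23.5 and 26.1 TPM on high-fat diet, and 15.3 and 21.5 TPM with CACF. Its log2 fold change was -0.24 ± 0.43, and it overlaps the proteasome gene psma2 on the other strand. mrps35 and mrps2 had log2 fold changes of -0.23 ± 0.41 and -0.18 ± 0.38. On normalized counts both CACF libraries lay below all normal-diet libraries for mrps35, mrps2, mrpl2 and mrpl41.

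**Figure D4:**
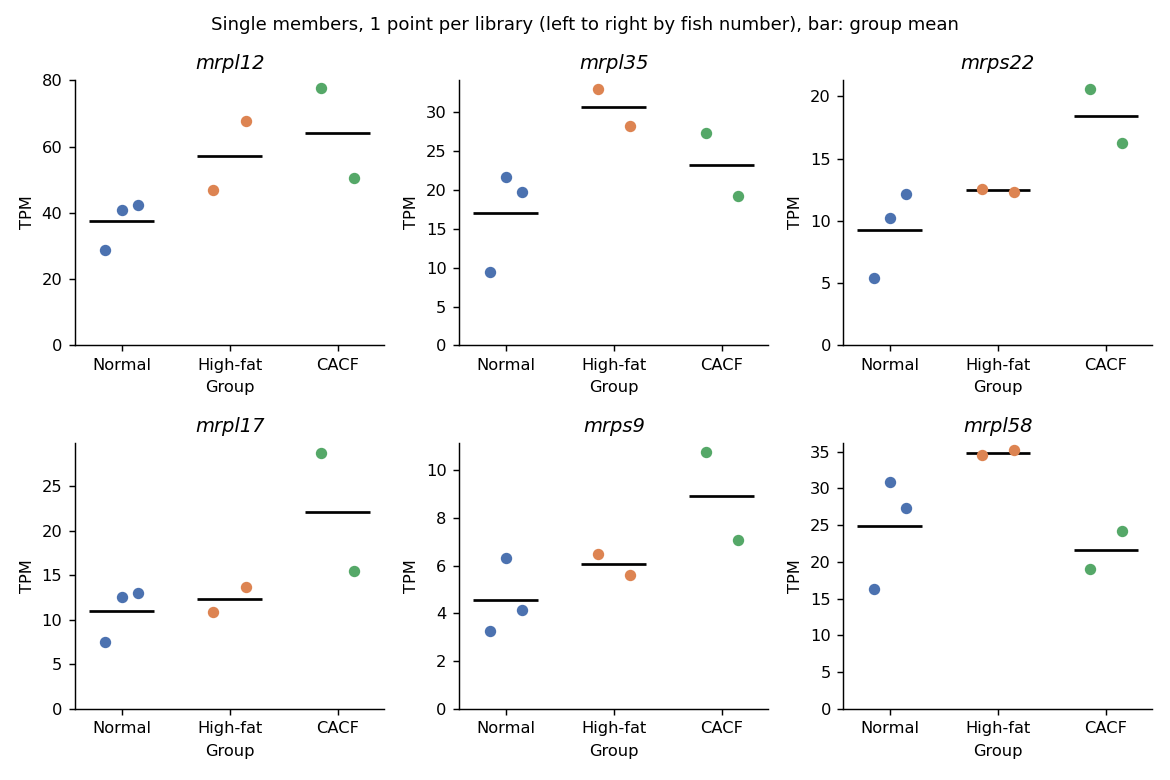
TPM of 6 members in each library (points, ordered by fish number within a group) with group means (bars). mrpl35 and mrpl58 are highest on high-fat diet, mrps22 is lowest on normal diet and highest with CACF without overlap, and in mrpl12, mrpl17 and mrps9 the highest point is CACF fish 2.

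The third comparison, CACF against high-fat diet, holds the diet constant. It sets larvae after a night in buffer with CACF against larvae without CACF. If the latter had no such night in buffer, the compound and that night cannot be told apart. No member was called by limma (0 of 76, against 0.0055% of all genes), and none had an unadjusted p under 0.05, against 13.8% of all genes. The median log2 fold change was 0.13 against 0.16 for all genes, with 50 of 76 members higher, or 65.8%, against 62.9%. The sign depended on the scaling: on normalized counts the median was -0.10 against -0.01 for all genes, with 24 of 76 members higher against 49.3% of all genes. It also depended on 1 library, since without CACF fish 2 the TPM median was -0.15 and the normalized-count median -0.38. The median half-width of the 95% interval of a member was 0.96. With 2 libraries a group, changes of up to about that size in either direction would not reach an unadjusted p under 0.05 in a typical member. A call rests on the adjusted p and so needed a still larger change. The gene ppargc1a, which is not a member, had a log2 fold change of 1.56 ± 0.42 in this comparison. It was not called, with an adjusted p of 0.112 by limma. edgeR called no member (0.0% of all genes called) and DESeq2 called none (5.16% of all genes called), with 3 and 2 members at an unadjusted p under 0.05, against 14.7% and 12.2% of all genes. limma on normalized counts called none, against 0.0143% of all genes, with 2 at an unadjusted p under 0.05 against 15.9%.

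In TPM 14 members lay higher with CACF without overlap and 11 lower, against 36.2% and 13.4% of all genes. On normalized counts 3 lay higher and 25 lower, or 32.9%, against 24.8% and 23.2% of all genes. Without CACF fish 2, 62 of 76 lay below both high-fat libraries on that scale, against 33.8% of all genes. CACF fish 2 alone lay above both high-fat libraries for 36 members on that scale, below both for 25 and between them for 15. The shares of all genes were not counted for CACF fish 2 alone, so these counts are not read as particular to the members. For CACF fish 4 alone, 35.4% of all genes lay above both high-fat libraries and 33.8% below both.

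The smallest p belonged to mrpl17, with a log2 fold change of 0.74 ± 0.45 and an adjusted p of 0.549 by limma. CACF fish 2 carried it: high-fat TPM was 10.9 and 13.7, and CACF TPM 28.8 and 15.5. Next came mrpl58, the peptidyl-tRNA hydrolase, at chromosome 12 (47439 to 49920, plus strand), which went the other way. Its TPM was 34.5 and 35.2 on high-fat diet and 19.0 and 24.1 with CACF. Both CACF libraries lay within the normal-diet range of 16.3 to 30.8, but only because fish 1 sets its low end. They lay below normal-diet fish 2 and 4. On normalized counts CACF fish 2, at 211, lay below every normal-diet library (246, 301 and 327), and CACF fish 4 was at 253. In TPM the log2 fold change against high-fat diet was -0.68 ± 0.43, with an adjusted p of 0.583 by limma. On recovered reads it was -0.89 by edgeR, adjusted p 0.205, and -0.90 by DESeq2, adjusted p 0.144.

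The remaining members of the 5 smallest p were mrps5 with a log2 fold change of 0.59 ± 0.44, mrps22 with 0.52 ± 0.45 and mrps9 with 0.47 ± 0.43. Beside mrpl58, the members farthest on the lower side were mrpl32 with -0.43 ± 0.47 and mrpl42 with -0.42 ± 0.49. For all of these but the last 2 the adjusted p by limma was 0.583 to 0.749, and for mrpl32 and mrpl42 it was 0.815 and 0.832.

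For CACF against high-fat diet, 26 members had opposite signs in TPM and in normalized counts. In all 3 comparisons mrpl10 and mrpl4 departed most from the members' median difference between these scales. mrpl10, which anchors the stalk formed by mrpl12, had a log2 fold change for CACF against high-fat diet of 0.42 in TPM and -0.46 in normalized counts. For high-fat against normal diet these values were 0.33 and 0.76. mrpl4 had log2 fold changes of 0.39 and 0.87 for CACF against high-fat diet, and of -0.01 and -0.38 for high-fat against normal diet. Among the other members of known role were mrps7 and MRPS12, of the small subunit's bacterial core, and mrps34, specific to mitochondria. Their log2 fold changes were between 0.11 and 0.77 in the 3 TPM comparisons, and none was called. For CACF against high-fat diet MRPS12 lay higher without overlap in TPM (0.11) and lower without overlap on normalized counts (-0.06). On normalized counts mrps7 and mrps34 had 0.02 and 0.23 in that comparison. In TPM mrpl11, which sits at the base of the stalk, had log2 fold changes of 0.26, 0.45 and 0.19 in the order of the comparisons, and mrps30 had 0.30, 0.44 and 0.14.

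Genes that act beside the mitoribosomal proteins were read out of the same fit, and none was called in any comparison. The 5 ribosomal proteins with other names (dap3, aurkaip1, chchd1, ptcd3 and gadd45gip1) had median log2 fold changes of 0.28, 0.48 and 0.22 for high-fat against normal diet, CACF against normal diet and CACF against high-fat diet. Those of the 26 genes for mitoribosome assembly and rRNA modification were 0.21, 0.07 and -0.08. Those of the 15 translation factors were 0.15, 0.20 and 0.13. The 17 tested mitochondrial aminoacyl-tRNA synthetases, which load tRNAs with amino acids, gave 0.17, 0.22 and 0.20. The 9 genes for transcription and maintenance of mitochondrial DNA gave 0.18, 0.28 and 0.01.

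Within these lists the assembly gene ybey, an endonuclease listed at 2 gene IDs, had log2 fold changes of 0.98 ± 0.41 and 0.67 ± 0.40 on high-fat against normal diet. The former copy was at 2.41, 5.70 and 5.25 TPM on normal diet and at 9.78 and 8.84 TPM on high-fat diet, without overlap, and the adjusted p was 1.0. The ribosome-recycling factor gene gfm2 stood at 6.30, 13.5 and 19.3 TPM, then 20.4 and 22.3 TPM on high-fat diet and 7.26 and 14.8 TPM with CACF. Its log2 fold change for CACF against high-fat diet was -0.97 ± 0.52 (adjusted p = 0.471 by limma). lrpprc, which stabilises mitochondrial mRNAs, was at 4.97 to 6.81 TPM in the 5 libraries without CACF and at 15.0 and 8.56 TPM with it. Its log2 fold change against normal diet was 0.88 ± 0.38 (adjusted p = 0.375 by limma). pars2, the prolyl-tRNA synthetase, was at 1.42 to 2.21 TPM without CACF and at 5.31 and 3.82 TPM with it, a log2 fold change against high-fat diet of 0.89 ± 0.38 (adjusted p = 0.312 by limma).

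Of the 13 tested regulators of mitochondrial gene sets, ppargc1a, the coactivator PGC-1alpha, had the smallest p in 2 comparisons. It was at 2.01, 3.52 and 1.11 TPM on normal diet, 0.222 and 0.580 TPM on high-fat diet, and 3.47 and 2.75 TPM with CACF. Both high-fat libraries lay below the other 5. The log2 fold change was -1.14 ± 0.38 on high-fat against normal diet, with an adjusted p of 1.0 by limma, and 1.56 ± 0.42 with CACF against high-fat diet, where limma gave an adjusted p of 0.112. These levels are low, and a link between ppargc1a and the members' values was not tested.

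The mRNAs that the mitoribosome translates were read too, while its protein products were not measured. The 13 protein genes of the mitochondrial genome had median log2 fold changes of 0.31, 1.44 and 1.29, none called. For CACF against normal diet 13 of 13 had an unadjusted p under 0.05 by limma, against 12.5% of all genes. The 13 genes were read in the same libraries and are not independent of each other. Both CACF libraries exceeded all normal-diet libraries for each of these 13 genes in TPM, against 19.2% of all genes, and for 7 of the 13 on normalized counts, against 16.3%. The summed TPM of the 13 was 171550, 121824 and 84012 on normal diet, 148790 and 125162 on high-fat diet, and 382453 and 260527 with CACF. The 2 mitochondrial rRNA genes, whose RNAs form the mitoribosome with the members, had median log2 fold changes of -0.34, -0.74 and -0.40, in libraries whose kit selects mRNA. The 85 tested nuclear subunits of oxidative phosphorylation gave 0.09, 0.26 and 0.16.

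The 79 cytosolic ribosomal protein genes gave 0.03, -0.59 and -0.64, none called. For CACF against high-fat diet, 77 of these 79 had lower means, against 26 of the 76 mitoribosomal members and 37.1% of all genes. On normalized counts 74 of the 79 lay lower without overlap, against 25 of the 76 members and 23.2% of all genes. No test of the difference between the lists was made. Summed over 4 exocrine pancreas genes, TPM was 554, 59.3 and 588 on normal diet, 108 and 265 on high-fat diet, and 5.40 and 38.8 with CACF, with none of the 4 at 0. This sum was thus lower in both CACF libraries than in the other 5, and its part in the members' values was not tested.

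**Figure D5:**
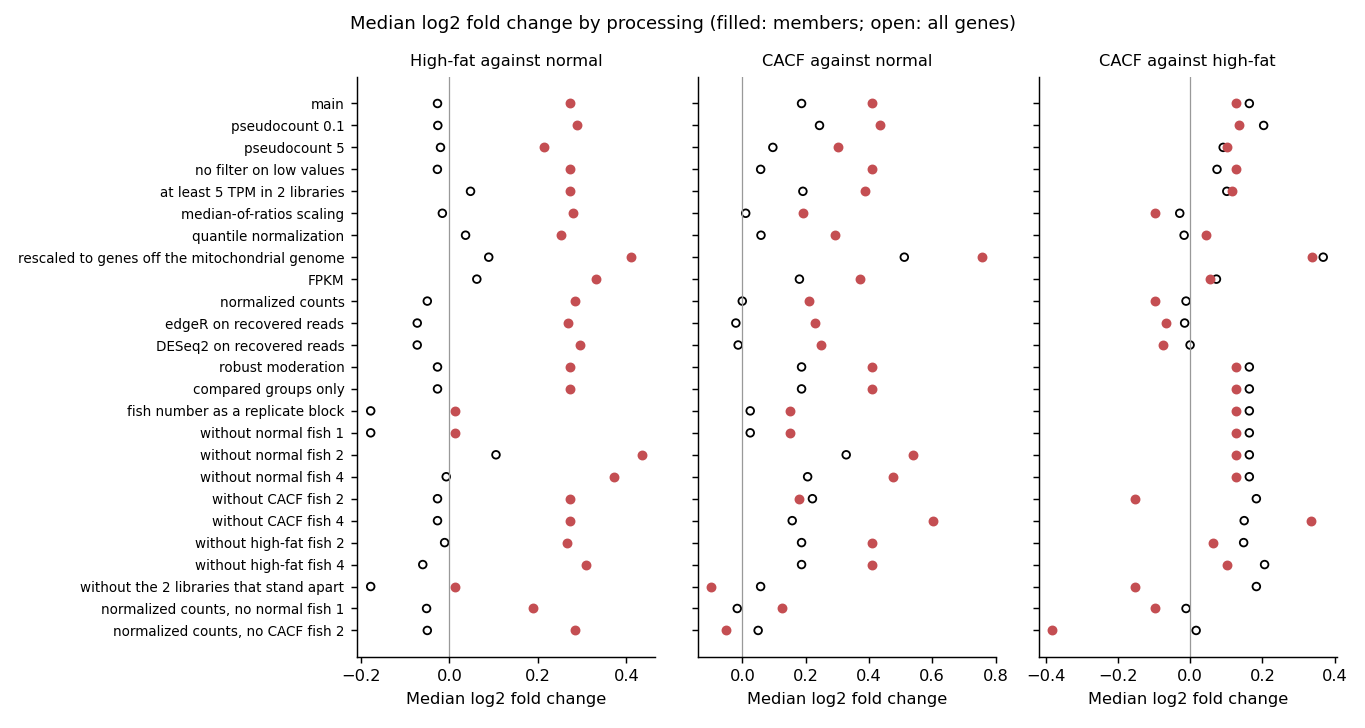
Median log2 fold change of the members (filled) and of all genes (open) in the 3 comparisons under 25 ways of processing. In the left panel the members lie to the right of all genes in each of the 25, by 0.19 to 0.38. In the right panel they lie on either side, from -0.40 to 0.18. In each panel several of the ways cannot change the difference.

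Set against all genes, the 3 comparisons differ in how far they depend on the processing. For high-fat against normal diet, the members' median exceeded that of all genes under each of the 25 ways of processing, by 0.19 to 0.38 on the log2 scale. For CACF against normal diet the difference ran from -0.16 to 0.45, above 0 in 22 and below in 3. For CACF against high-fat diet it ran from -0.40 to 0.18, above 0 in 5 and below in 20. Several of the ways cannot change a given difference. Leaving out normal-diet fish 1, for example, left that for CACF against high-fat diet at -0.04, as in the main fit. The counts of ways are therefore not counts of separate results. The comparisons share their control libraries, and the 25 ways share the same 7 libraries, so they are not independent of each other.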

How the data were processed

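Per the labels' protocols, the 7 whole-larva libraries were made with a stranded mRNA kit. The submitters' processing notes name FastQC, Trimmomatic, HISAT2 and DESeq2 but no versions. GRCz11 is the build that the deposited files' names carry, and the sources used here do not name the counting program. Per the file headers, each library's deposited table holds coverage, FPKM and TPM per gene. The TPM of assembled loci summed to 1000000 in each deposited file and reference genes added 739551 to 884988, so this column was handled as a signal. Reference genes were used, and values of a gene listed at several places were summed. The authors also deposited 2 tables of 29567 genes with log2 fold changes, standard errors, a test score, p-values and, as a signal, normalized counts for each library. Within each library 100% of these were multiples of 1 step (tolerance 0.001), from which reads were recovered.

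limma 3.58.1 in R 4.3.3 was run on log2(TPM + 1) for the 18169 genes that reached 1 TPM in 2 or more libraries. All 7 libraries entered 1 fit of group means with a variance trend (4 residual degrees of freedom), with Benjamini-Hochberg adjustment at 0.05 over all genes. Alternatives included edgeR 4.0.16 and DESeq2 1.42.0 on recovered reads and limma on normalized counts of at least 10. The procedure was also run on simulated counts with the same spread setting for all genes and no library that stood apart. That run therefore does not show how it performs on these 7 libraries. The 76 members and the other gene lists were chosen with earlier results of these data known. Members named were the 5 with the smallest p and up to 3 of opposite sign in each comparison, the 5 highest and 3 lowest, and a set of known roles. mrpl4, mrps31, mrpl2 and mrpl41 were named after their values were seen.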

Additional observations from a re-analysis of the deposited data

How the results depend on the processing

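No member was called under any of the alternatives in any comparison, and the 3 counts of called members stayed at 0. The median log2 fold change of members kept its sign in every alternative for high-fat against normal diet. For CACF against normal diet it was -0.10 without normal-diet fish 1 and CACF fish 2, and -0.053 on normalized counts without CACF fish 2, both chosen after seeing the data. For CACF against high-fat diet it was 0.13 as reported and -0.10 with median-of-ratios scaling, -0.10 on normalized counts with or without normal-diet fish 1, -0.068 by edgeR, -0.075 by DESeq2, -0.15 without the 2 libraries and -0.38 on normalized counts without CACF fish 2. Leaving out 1 library in turn gave medians of 0.01 to 0.43 for high-fat against normal diet, 0.15 to 0.60 for CACF against normal diet and -0.15 to 0.33 for CACF against high-fat diet. A library left alone in its group was assumed to vary like the others. Rescaling to genes off the mitochondrial genome moved the medians to 0.41, 0.76 and 0.34 and those of all genes to 0.09, 0.51 and 0.37. For the 34 members named by the rules above, 216 of 2445 recomputed fold changes changed sign and 0 changed call. Several alternatives cannot change some of these fold changes. Many of the 34 members were picked for a small p or an opposite sign, and the other members are not in this count. The causes were not tested.

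With the fish number as a replicate block the members' medians were 0.01, 0.15 and 0.13 with 0 called. Fish 1 occurs in 1 group, so the block takes it out of the comparison. Same-numbered libraries of different groups deviated together with correlations of 0.101 to 0.373. Normal-diet fish 1, which shares no number, gave -0.16 to 0.16 with the libraries of the other groups. In a group of 2 libraries the deviations mirror each other, so several of these correlations are fixed by others. The labels do not tie the numbers, and each comparison has 2 shared numbers. Whether same-numbered libraries share more than a number is not known. The depth of 74 reads for the lowest member and groups of 2 limit the precision.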
